A study of Mus musculus with 2 samples.

Results

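Scavenger receptors are surface proteins that bind modified lipoproteins, dead-cell debris, microbial polymers and other polyanionic or lipid ligands, and carry them into the cell. The 9 genes described here are Cd36, Msr1, Marco, Cd68, Scarb1, Cd163, Stab1, Mrc1 and Olr1, taken by symbol from the 55536 genes of the deposited tables. All 9 symbols matched exactly 1 gene. The rule itself uses symbols and no measured value.

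Polyadenylated RNA was sequenced from whole cells of mouse bone marrow-derived macrophages, primary cells of strain C57BL/6J. The study has 1 group of 2 libraries, labelled biological replicates 1 and 2, and each was stimulated at 100 ng/mL for 300 min. The stimulus is called Lipid A in the sample description and lipoprotein A in the treatment label, so it is called the stimulus here. Both biosamples carry the same donor record, and the labels give neither sex nor age. No unstimulated group was analysed here. The values therefore give the level of each receptor in stimulated cells and the spread between these libraries, which may be technical, and they give no response to the stimulus.

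Macrophages use these receptors without the tight feedback that limits the low-density lipoprotein receptor, which is why they can fill with cholesterol ester and turn into foam cells. The family is defined by shared ligands more than by shared ancestry. Msr1 and Marco are trimers with a collagen-like stalk (class A), Cd36 and Scarb1 span the membrane at both ends (class B), Cd68 is a heavily glycosylated lysosomal protein, Olr1 and Mrc1 bind through C-type lectin folds, Stab1 carries fasciclin domains, and Cd163 is built of scavenger receptor cysteine-rich domains.

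The transcript sequences that distinguish forms of Msr1 and Scarb1 are shown first, since the transcript results turn on them. They come from the GENCODE M21 transcripts on mm10, 5′ to 3′ on the transcript strand. Msr1 makes a type I receptor, which ends in a cysteine-rich domain, and a type II receptor, which stops after the collagen-like stalk. Both share exons 1 to 8. The first sequences give the 54 bases at the end of shared exon 8 in lower case. Capitals mark what follows. In type I (Msr1-201, 10 exons, 458 residues) that is the first 60 bases of its own exon 9, and in type II (Msr1-202, 9 exons, 354 residues) the first 11 bases of a different exon 9, which end in the stop codon.
Msr1-201: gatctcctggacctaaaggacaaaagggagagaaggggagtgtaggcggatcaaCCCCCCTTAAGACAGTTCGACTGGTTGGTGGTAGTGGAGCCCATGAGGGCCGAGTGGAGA
Msr1-202: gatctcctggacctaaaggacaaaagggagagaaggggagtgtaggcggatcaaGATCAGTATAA
The next sequences show the cytoplasmic tail switch of Scarb1, with 30 bases of shared exon 11 in lower case. Capitals mark the 129-base exon 12 that gives the SR-BI tail (Scarb1-201, 509 residues), or the first 30 bases of the last exon, read when exon 12 is skipped, which gives the SR-BII tail (Scarb1-202, 506 residues).
Scarb1-201: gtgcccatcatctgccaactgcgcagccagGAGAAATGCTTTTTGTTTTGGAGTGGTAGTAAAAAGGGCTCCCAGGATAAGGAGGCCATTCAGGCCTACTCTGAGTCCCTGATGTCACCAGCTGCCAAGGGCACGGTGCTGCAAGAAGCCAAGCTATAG
Scarb1-202: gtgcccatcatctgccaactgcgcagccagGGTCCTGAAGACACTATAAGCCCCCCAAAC

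Most of the family was expressed in these cells, from among the most abundant transcripts of the cell to almost none. Levels are given as TPM (a transcript's abundance scaled to its length and to a fixed total), so that they can be set side by side between genes. Of the 9 genes, 8 reached 1 TPM in both libraries, against 42.4% of 22028 protein-coding genes. At 100 TPM or more in both libraries were 3 of them, Cd68, Msr1 and Mrc1, against 5.08% of protein-coding genes. The remaining member, Cd163, stayed under 1 TPM in both. The median of the 9 genes was 54.7 and 70.5 TPM in replicates 1 and 2, beside medians of 14.4 and 13.5 TPM over the 9982 genes at 1 TPM or more in both.

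**Figure D1:**
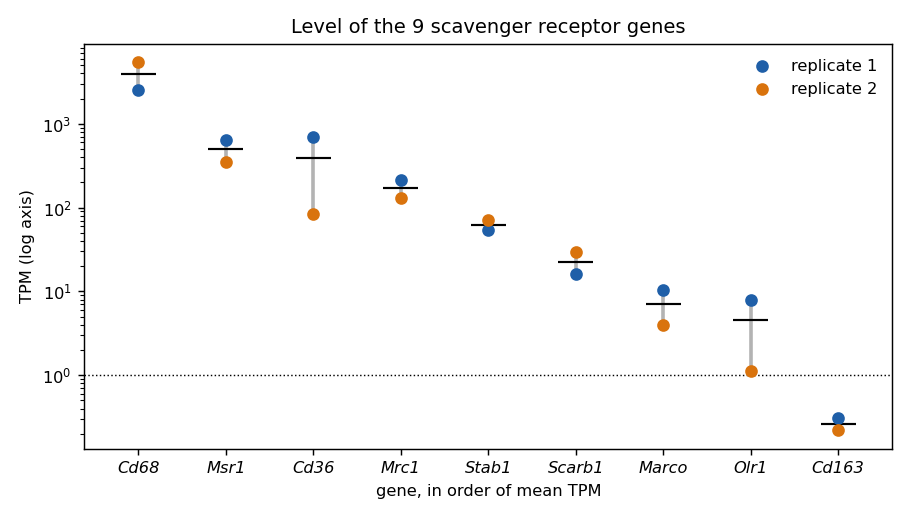
Level of each of the 9 genes in TPM on a log axis. Points are the libraries, the short bar is their mean, and the dotted line is 1 TPM. Cd68 sits highest, Cd163 lies under 1 TPM, and the points of Cd36 and Olr1 lie farthest apart.

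Cd68 (ENSMUSG00000018774.13, chr11:69664213-69666153, minus strand) encodes macrosialin, a late endosomal and lysosomal glycoprotein widely used to stain macrophages. Its level was 2496 and 5400 TPM in replicates 1 and 2, averaging 3948 ± 2054 (SD, n = 2). That placed it 50th and 21st of all genes. It held 60.4% of the summed TPM of the 9 genes in replicate 1 and 89.0% in replicate 2. Without Cd68 the sum ran the other way, from 1639 TPM in replicate 1 to 665.1 TPM in replicate 2.

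The promoter of this most abundant member is shown because it holds 2 copies of an AP-1 motif, the letters TGANTCA, which are the same on both strands. The sequence is the 250 bases before the RefSeq start on GRCm38.p6, at chr11:69666171-69666420, minus strand, with the motif in capitals.
Cd68: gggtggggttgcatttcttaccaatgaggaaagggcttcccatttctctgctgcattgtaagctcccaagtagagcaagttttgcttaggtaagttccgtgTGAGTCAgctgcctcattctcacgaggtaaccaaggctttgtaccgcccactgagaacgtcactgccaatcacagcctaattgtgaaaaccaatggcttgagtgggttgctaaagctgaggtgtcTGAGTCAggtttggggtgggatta
The copies begin 149 and 24 bases before the start. The motif was present in 7.81% of 32851 promoter windows of 300 bases, which run from 250 bases before to 50 after the start. Among the 7 members with an entry, Olr1 held it as well, with 1 copy. Msr1 and Scarb1 had no entry. On both strands, the PU.1 motif GAGGAAG was found in Mrc1 (2 copies) and Marco (1 copy) and in 13.6% of all windows, and a 10-base NF-kB motif in Marco (1 copy) and 4.79% of all windows. A 10-base interferon response motif, found in 3.44% of all windows, was in none of the 7. The RefSeq start of Cd36 lies 200 and 179 bases before the starts of its transcripts Cd36-201 and Cd36-206. The window scanned for Cd36 does not reach the start of its leading transcript, Cd36-203. Such motif matches describe letters only.

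The class A receptors were at very different levels. Msr1 (ENSMUSG00000025044.16, chr8:39581685-39642673, minus strand), the receptor through which acetylated lipoprotein was first followed into macrophages, stood at 643 TPM in replicate 1 and 345 TPM in replicate 2, a mean of 494.1 ± 210.2 (SD, n = 2). Marco (ENSMUSG00000026390.7, chr1:120474538-120505024, minus strand) binds bacteria and inhaled particles and is best known from alveolar and marginal-zone macrophages. Its level was 10.3 and 3.96 TPM in replicates 1 and 2, averaging 7.13 ± 4.48 (SD, n = 2). Both genes were higher in replicate 1, and the values of Msr1 lay far above those of Marco in each library.

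The class B receptors also differed, and in opposite directions between the libraries. Cd36 (ENSMUSG00000002944.15, chr5:17781690-17888801, minus strand) takes up oxidised lipoprotein and long-chain fatty acids. It stood at 692 TPM in replicate 1 and 83.4 TPM in replicate 2, a mean of 387.9 ± 430.6 (SD, n = 2). The SD of Cd36 exceeded its mean, and its place among all genes moved from 213th to 1595th. Scarb1 (ENSMUSG00000037936.15, chr5:125277087-125341094, minus strand), the high-density lipoprotein receptor that exchanges cholesterol with the particle, stood at 16.2 TPM in replicate 1 and 29.2 TPM in replicate 2, a mean of 22.7 ± 9.14 (SD, n = 2).

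Of the C-type lectin members, Mrc1 was abundant and Olr1 scarce. Mrc1 (ENSMUSG00000026712.3, chr2:14229392-14332057, plus strand) encodes the mannose receptor, a clearance receptor for mannosylated glycoproteins. Its level was 215 and 131 TPM in replicates 1 and 2, averaging 172.9 ± 58.8 (SD, n = 2). Olr1 (ENSMUSG00000030162.14, chr6:129485244-129507165, minus strand) encodes LOX-1, an oxidised lipoprotein receptor studied mostly in endothelium. It was listed at 7.93 TPM in replicate 1 and 1.12 TPM in replicate 2, a mean of 4.53 ± 4.82 (SD, n = 2), so that in replicate 2 it lay just above the level counted as detected.

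Stab1 and Cd163 are both linked in textbooks to anti-inflammatory or tissue-resident macrophages, but here they stood far apart. Stab1 (ENSMUSG00000042286.13, chr14:31139013-31168641, minus strand), a receptor that clears the matrix protein SPARC and placental lactogen, was at 54.7 TPM in replicate 1 and 70.5 TPM in replicate 2, a mean of 62.6 ± 11.2 (SD, n = 2). Cd163 (ENSMUSG00000008845.9, chr6:124304656-124330527, plus strand), the haemoglobin-haptoglobin receptor, was at 0.31 TPM in replicate 1 and 0.22 TPM in replicate 2, a mean of 0.265 ± 0.0636 (SD, n = 2). Those levels rest on 27 and 36 expected counts, the estimated reads assigned to the gene, of 38078399 and 63705317 in all.

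In order of mean level the genes ran Cd68, Msr1, Cd36, Mrc1, Stab1, Scarb1, Marco, Olr1 and Cd163. Neighbours whose library values overlapped were Msr1 with Cd36, Cd36 with Mrc1, and Marco with Olr1. The other 5 steps of the order did not overlap. The smallest of those steps in a single library was from Scarb1 to Marco, 1.57-fold in replicate 1.

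Below Cd68, the order of Cd36, Msr1 and Mrc1 differed between the libraries. In replicate 1 Cd36 and Msr1 were close, with Msr1 at 0.928 of the Cd36 level. In replicate 2 Msr1 was 4.14-fold above Cd36, and Cd36, which exceeded Mrc1 by 3.23-fold in replicate 1, was at 0.635 of the Mrc1 level. The share of the summed TPM held by Cd36 was 16.7% in replicate 1 and 1.37% in replicate 2.

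The ratio between the libraries was next taken from counts, with the trimmed mean of M-values (TMM) scaling of edgeR, and each gene was tested with a two-sided exact binomial test of its counts, adjusted over 12226 genes. With 1 library on each side, the test compares the reads of these libraries and no conditions, and its 95% intervals cover counting error only. In bulk RNA, fewer cells of a type and less RNA per cell cannot be told apart. A gene was called when the adjusted p was under 0.05 and the ratio at least 1.5-fold. By that rule 33.8% of all tested genes were called, 15.6% with replicate 2 above replicate 1 and 18.2% the other way, and 6 of the 9 receptor genes were called, 2 with replicate 2 above and 4 with replicate 1 above. The median log2 ratio of the 9 genes, replicate 2 over replicate 1, was -0.55, beside -0.01 over all tested genes.

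Cd36 had the largest ratio of the 9. Its scaled counts, as CPM, were 1044 in replicate 1 and 142 in replicate 2, a log2 ratio of -2.88 with a counting interval of -2.91 to -2.84. This 7.34-fold difference was larger in size than that of 99.8% of tested genes. Olr1 followed with 12.2 and 2.56 scaled CPM, a log2 ratio of -2.24 (interval -2.52 to -1.99) and an adjusted p of 3.87e-76 in the exact binomial test. Its 4.71-fold difference was larger than that of 99.3% of tested genes.

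Marco and Msr1 were also called higher in replicate 1. Marco had 7.66 and 3.53 scaled CPM, a log2 ratio of -1.11 (interval -1.38 to -0.86) and an adjusted p of 6.22e-18 in the exact binomial test. Msr1 had 1008 and 475 scaled CPM and a log2 ratio of -1.08 (interval -1.11 to -1.06). Marco therefore differed by 2.16-fold and Msr1 by 2.12-fold.

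Cd68 and Scarb1 were called in the other direction. Cd68 had 1447 and 3656 scaled CPM, a log2 ratio of 1.34 (interval 1.32 to 1.35), which is 2.53-fold. Scarb1 had 22.2 and 44.0 scaled CPM, a log2 ratio of 0.98 (interval 0.87 to 1.09) and an adjusted p of 1.63e-75 in the exact binomial test. The class B genes Cd36 and Scarb1 thus moved apart between the libraries, as did the lysosomal Cd68 and the class A genes.

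The remaining genes were not called. Mrc1 had a log2 ratio of -0.55 (1.47-fold), just under the 1.5-fold limit, and is called when libraries are scaled by total count (-0.73). Stab1 had a log2 ratio of 0.47 (1.38-fold). For Cd163 the interval ran from -0.91 to 0.63 around -0.14, with an adjusted p of 0.754 in the exact binomial test. That interval includes a 1.5-fold difference in either direction.

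**Figure D2:**
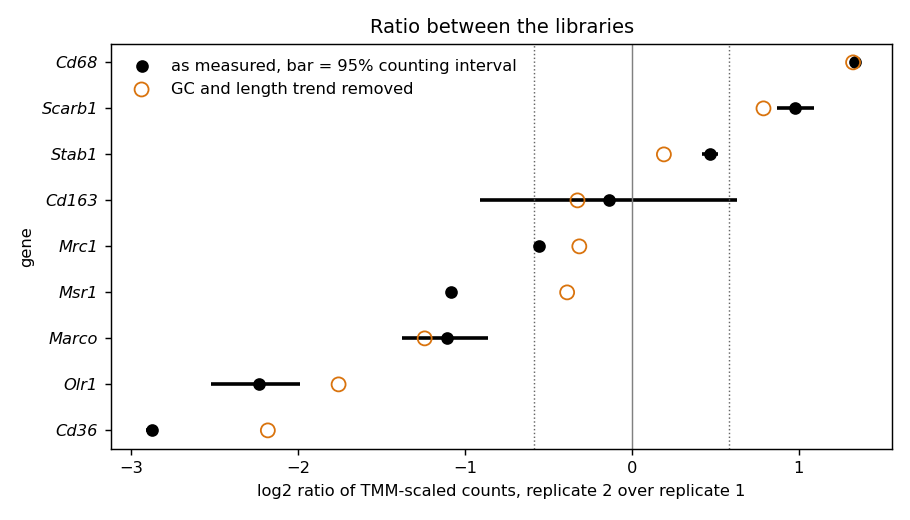
Ratio between the libraries for the 9 genes, as the log2 of replicate 2 over replicate 1 after TMM scaling. Filled points are the measured ratios with 95% counting intervals, open circles the ratios after the trend with GC content and length over all tested genes was removed, and dotted lines mark 1.5-fold. The open circle of Msr1 lies inside the 1.5-fold lines, while those of Cd36, Olr1, Marco, Scarb1 and Cd68 stay outside.

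Base composition moved with these ratios across the whole of the data. The tenth of tested genes with the lowest GC content, 31.9% to 41.4% in the leading transcript, had a median log2 ratio of -0.69, and genes between 53.4% and 55.4% had a median of 0.17. Cd36 (38.7% GC), Msr1 (38.4%) and Olr1 (41.2%) all belong to the lowest group, Mrc1 (43.4%) to the next, and Cd68 (52.9%), Marco (54.5%), Scarb1 (56.2%) and Stab1 (57.3%) to the higher ones. With the trend in GC content and length removed, the log2 ratio of Msr1 was -0.39, and it was no longer called. Cd36 stood at -2.18, Olr1 at -1.76, Marco at -1.24, Scarb1 at 0.79 and Cd68 at 1.33, and all 5 were still called. Under that correction 27.2% of all tested genes were called, 13.5% with replicate 2 above replicate 1 and 13.6% the other way. Cd36 and Olr1 lay well below the median of genes of their GC content, and Marco, of high GC content, lay on the opposite side from its group.

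**Figure D3:**
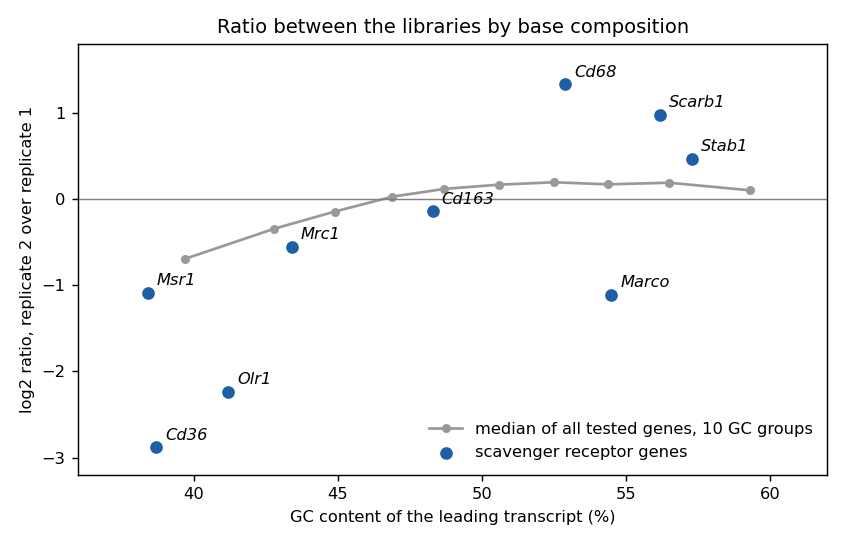
Log2 ratio between the libraries against the GC content of each gene's leading transcript. Grey points join the medians of 10 equal groups of all tested genes, which rise from -0.69 to about 0.2, and blue points are the 9 receptor genes. Msr1 and Mrc1 lie nearest the grey line on the low-GC side, and Cd36, Olr1 and Marco lie far below it.

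Transcript make-up was read from IsoPct, the share of a gene's TPM given to each annotated transcript. For 7 of the 9 genes the same transcript led in both libraries, and Msr1 and Stab1 were the exceptions. By share of expected counts, which favours long transcripts, Msr1-202 and Stab1-201 led in both libraries. Cd68 came almost wholly from Cd68-201 (97.5% and 99.7% in replicates 1 and 2, 326 residues) and Mrc1 from Mrc1-201 (99.5% and 98.6%, 30 exons, 1456 residues).

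Msr1 differed in its form between the libraries. The type I transcript Msr1-201 held 9.13% of the gene's TPM in replicate 1 and 42.2% in replicate 2, while the type II transcript Msr1-202 held 70.1% and 42.2%. In TPM, type I stood at 58.7 in replicate 1 and 146 in replicate 2, and type II at 450 and 146. The authors' posterior bounds for type I, 50.7 to 63.1 TPM in replicate 1 and 137 to 148 TPM in replicate 2, did not overlap.

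Type I was thus higher in the library where the gene as a whole was lower. As a share of types I and II together, type I was 11.5% in replicate 1 and 50.0% in replicate 2 by TPM, 4.25% and 25.8% by expected counts, and 20.9% and 57.4% by TPM of the second quantification. All measures gave type I a larger share in replicate 2, although its size depended on the measure. The 33.1-point change in IsoPct was larger than that of 90.7% of the 4937 genes with 2 or more transcripts and 10 TPM in both libraries, and 16.6% of those genes moved by 25 points or more in some transcript.

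The 2 Msr1 forms differ in annotated length and base composition as well as in the coding end printed above. Type II carries 2518 bases after its stop codon at 35.4% GC, and type I only 47 such bases, at 25.5% GC. The RefSeq locus of Msr1 runs 38453 bases beyond the GENCODE end of type I. The shared exons 1 to 8 have 45.5% GC and the type I exons 9 and 10 have 45.7%. Type II, the form with the lower GC content over its whole length, was the one lower in replicate 2. The part of base composition and of annotated transcript ends in the Msr1 shares was not tested. Partial, processed and retained-intron transcripts took the rest, among them Msr1-205 with 12.5% and 4.71% and Msr1-203 with 7.06% and 10.2%.

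By IsoPct, Cd36 had a similar make-up in both libraries, at scaled counts 7.34-fold apart. All 5 complete transcripts encode the same 472 residues and differ in their starts, and also in their annotated 3′ ends and in length (2564 to 3399 bases). Those from the most upstream start held 41.4% of TPM in replicate 1 and 47.6% in replicate 2, those that start 53084 and 53105 bases downstream of the first start (Cd36-206 and Cd36-201) held 53.7% and 50.0%, and a middle start held 4.94% and 2.38%. The leading transcript was the upstream Cd36-203 in both libraries (41.4% and 47.7%), followed by the downstream Cd36-206 (36.2% and 30.3%) and Cd36-201 (17.5% and 19.7%). As assigned to transcripts, levels from both main starts were lower in replicate 2, with Cd36-203 at 287 and 39.7 TPM and Cd36-206 at 250 and 25.3 TPM. In the second quantification, transcripts from the upstream start held 43.5% in replicate 1 and 53.7% in replicate 2, and the downstream ones 52.5% and 44.7%. There the partial upstream Cd36-205, listed at 0 by IsoPct in both libraries, held 0.0807% and 12.6%. All of these are estimates for whole transcripts, and use of the starts themselves was not tested.

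Scarb1 was mostly the SR-BI form in both libraries. Scarb1-201, with exon 12, held 81.8% and 82.2% of TPM in replicates 1 and 2, and Scarb1-202, without it, held 17.1% and 13.0%. The share of SR-BII in the sum of both forms was 17.3% and 13.7% by TPM, 16.3% and 12.9% by expected counts, and 11.6% and 13.9% by the second quantification, so the measures differed in the direction between the libraries. The SR-BI tail ends in the motif that binds the adaptor PDZK1, which the SR-BII tail lacks.

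For Stab1, a large part of the TPM came from transcripts annotated as retaining an intron. These held 61.6% in replicate 1 and 65.9% in replicate 2, chiefly Stab1-205 (24.6% and 31.7%), Stab1-209 (17.3% and 25.2%) and Stab1-204 (18.3% and 8.14%). The 69-exon transcript Stab1-201, the only complete coding one, with 2571 residues, held 35.1% and 29.6% of TPM but 69.0% and 60.5% of expected counts, since it is 7999 bases long and TPM divides by length. In the second quantification the retained-intron transcripts held less, 45.0% and 41.5% of TPM, and Stab1-201 led in both libraries with 51.1% and 41.0%. Counted over complete coding transcripts alone, a measure chosen after seeing these tables, Stab1 stood at 19.2 and 20.9 TPM. On that measure Stab1 overlapped with Scarb1, at 16.1 and 27.8 TPM, and lost its place above it.

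The scarce members have a make-up that rests on few counts. Marco-201 (518 residues) held 71.0% and 75.2% of TPM, and the partial 370-base Marco-202 held 29.0% and 24.8% from 8 and 5 expected counts. Olr1-201 (363 residues) held 74.8% in replicate 1 and 100% in replicate 2, and the partial Olr1-202 held 25.2% in replicate 1 from 5 expected counts and was listed at 0 in replicate 2. Cd163-201 (1121 residues) held 45.2% and 94.4%, the retained-intron Cd163-203 held 42.9% and 5.62%, and Cd163-202 held 11.9% and 0, on 27 and 36 expected counts for the whole gene.

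**Figure D4:**
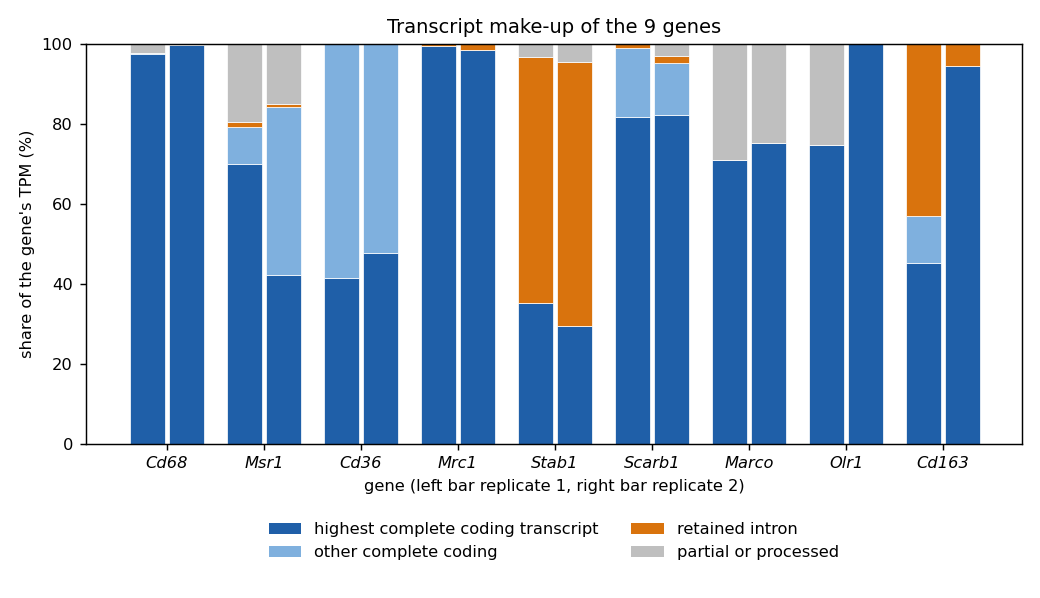
Share of each gene's TPM in percent by kind of transcript, with replicate 1 on the left and replicate 2 on the right of each pair. Dark blue is the complete coding transcript with the highest mean share, light blue other complete coding transcripts, orange retained introns and grey partial or processed transcripts. Msr1 moves from dark to light blue between the libraries, and orange takes most of Stab1.

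Other annotated genes touch 3 of the members. The 3′ end of Stab1 shares 112 bases with Nt5dc2 on the opposite strand, which had 365 expected counts in replicate 1 and 1240 in replicate 2. Without known strand use in the counting, reads in those bases cannot be told apart. Mir511 lies within Mrc1 and Gm42633 within Scarb1, and both were listed at 0 in these tables.

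Beyond the 9 genes, 9 of 17 further scavenger receptors reached 1 TPM in both libraries, against 42.4% of protein-coding genes. The highest were Cd44, the hyaluronan receptor, at 549 TPM in replicate 1 and 751 TPM in replicate 2, Cd5l, a secreted cysteine-rich protein of macrophages, at 645 and 281 TPM, Cxcl16, a transmembrane chemokine that binds oxidised lipoprotein, at 392 and 416 TPM, and Clec7a, the beta-glucan receptor dectin-1, at 375 and 253 TPM. Scara5, Asgr1, Cd163l1 and Lrp2 were listed at 0 in both. Of the 10 genes of this list that were tested, 1 was called with replicate 2 above replicate 1 and 2 the other way. Over all tested genes the shares were 15.6% and 18.2%. None of the 3 relatives of Mrc1 reached 1 TPM in both. Pla2r1 stood at 1.73 and 0.9 TPM, Ly75 at 0.87 and 0.4 TPM and Mrc2 at 0.06 and 0.04 TPM. In the second quantification Pla2r1 did reach it, at 2.79 TPM in replicate 1 and 1.57 TPM in replicate 2.

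Transcripts of proteins that work with these receptors were nearly all detected. Of 16 partner genes, 15 reached 1 TPM in both libraries, against 42.4% of protein-coding genes. The highest were the lysosomal membrane protein gene Lamp1 at 1687 TPM in replicate 1 and 3237 TPM in replicate 2, the fatty acid carrier gene Fabp5 at 2790 and 1662 TPM, Lamp2 at 528 and 943 TPM and the integrin gene Itgb1 at 381 and 293 TPM. Pdzk1, the adaptor that stabilises Scarb1 protein in liver, was lowest at 0.02 and 0.01 TPM. Of the 15 tested, 5 were called with replicate 2 above replicate 1 and 2 the other way, beside 15.6% and 18.2% of all tested genes. Lamp1, with a log2 ratio of 1.12, and Lamp2, with 0.61, were called in the same direction as the lysosomal Cd68. Named after their values were seen, Fabp4, a carrier of the fatty acids that Cd36 takes up, stood at 147 and 33.7 TPM with a log2 ratio of -1.76, and Tlr4 at 30.8 and 16.9 TPM with -0.80. They were the 2 partners called higher in replicate 1. With the GC and length trend removed, Fabp4 stood at -0.95 and Tlr4 at -0.19, which was no longer called. The partner counts were then 4 and 1, beside 13.5% and 13.6% of all tested genes.

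Of 14 regulators of these genes, 12 reached 1 TPM in both libraries, against 42.4% of protein-coding genes. The highest were Spi1, which encodes PU.1, at 405 TPM in replicate 1 and 718 TPM in replicate 2, Nfe2l2, which encodes NRF2, an activator of Cd36 and Marco, at 75.2 and 182 TPM, Maf at 81.0 and 90.2 TPM, and Nr1h3, the oxysterol receptor LXR alpha, at 72.0 and 54.6 TPM. Irf4 was lowest at 0.53 and 0.37 TPM. All 14 were tested: 6 were called with replicate 2 above replicate 1, and 0 the other way. Over all tested genes the shares were 15.6% and 18.2%. With the GC and length trend removed the counts were 5 and 2, beside 13.5% and 13.6% of all tested genes. Spi1 lost its call (0.51), and Rxra (-0.73) and Cebpa (-0.61), named after their values were seen, were called higher in replicate 1. Pparg, the fatty acid sensor known to drive Cd36 and named here after its values were seen, was at 6.19 and 6.61 TPM. Its log2 ratio was 0.28, and it was not called. Nfe2l2 had a log2 ratio of 1.47 and was called higher in replicate 2. The link of regulator ratios to those of Cd36 (-2.88) and Marco (-1.11) was not tested.

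The cells carried the markers of their label. Some neutrophil, platelet and dendritic cell genes were higher in replicate 1, as were Cd36, Olr1, Marco and Msr1 but not Cd68 and Scarb1. Some endothelial genes were higher in replicate 2, and Stab2 was higher in replicate 1. Of 12 macrophage markers, which include 5 of the receptor genes, 11 reached 1 TPM in both, led by Lyz2 at 10495 and 13567 TPM in replicates 1 and 2 and by Cd68. The 10 neutrophil markers summed to 516.5 TPM in replicate 1 and 26.9 TPM in replicate 2, led by S100a9 (316 and 10.2) and S100a8 (127 and 5.63), with 4 of 10 detected and Ly6g at 0. Of the 4, Mmp8, named after its values were seen, was at 8.71 and 8.15 TPM and was not called (log2 ratio 0.08). The 6 platelet markers summed to 767 and 107 TPM with 2 of 6 detected, Pf4 (753 and 105) and Ppbp (11.8 and 1.68), and the platelet integrin Itga2b was at 1.35 and 0.09 TPM. Pf4 made up most of the sum in both libraries. Gp9 (0.66 and 0 TPM), Gp1bb (0.1 and 0.03) and Gp6 (0.37 and 0.06), named after their values were seen, were under 1 TPM in both. The 3 platelet markers tested were Pf4, Ppbp and Gp6. Their log2 ratios were -2.55, -2.55 and -1.18. Platelets also carry Cd36, and the part of platelet RNA in its ratio was not tested.

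Markers of adipocytes, another cell type rich in Cd36, were at 0. Of the 6 adipocyte markers, Adipoq, Plin1, Cidec and Lep were at 0 in both libraries, and Cd36 and Fabp4 themselves were the others. Of the 8 endothelial markers, which bear on Olr1 and Stab1, 5 reached 1 TPM in both and the sum was 40.4 and 90.2 TPM in replicates 1 and 2, led by Kdr (20.0 and 67.6) and Stab2 (13.4 and 8.8), while Tie1 was at 0.04 and 0.01 TPM. Of the 5 endothelial markers tested, 2 were called higher in replicate 2 and 1 the other way, beside 15.6% and 18.2% of all tested genes. The 2 were Kdr (log2 ratio 1.92) and Vwf (1.24), the latter named after its values were seen, and the 1 was Stab2 (-0.59). Of the erythroid, fibroblast and lymphocyte markers 0 were detected. Among them were Hba-a1 (0.19 and 0.1 TPM), Alas2 (0 and 0.1), Col1a1 (0.51 and 0.32), Col1a2 (0.47 and 0.22) and Ms4a1 (0.17 and 0.03), while Hbb-bs, Klf1 and Cd3g were at 0. Of 6 dendritic cell markers 1 was detected, Itgax (5.04 and 3.11), followed by Clec9a (2.43 and 0.43). Of the 4 tested, 2 were called higher in replicate 1 and 0 the other way, beside 18.2% and 15.6% of all tested genes. They were Clec9a (log2 ratio -2.20) and Siglech (-2.59), the latter named after its values were seen. Xcr1, also named after its values were seen, had a log2 ratio of 0.24 and was not called. With the GC and length trend removed, 3 were called higher in replicate 1 and 1, Xcr1 (0.63), higher in replicate 2. The shares over all tested genes were then 13.6% and 13.5%. The part of neutrophil-, platelet-, dendritic cell- or endothelial-type RNA in the receptor ratios was not tested.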

How the data were processed

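Members and gene lists (14 lists, 115 genes) were chosen with earlier results of these data known. The authors deposited, per library, a gene table and a transcript table in RSEM layout and a transcript table in kallisto layout, on mm10 with GENCODE M21, per the file headers and accompanying notes. No aligner, quantifier or version is given in the sources used here, nor whether counting used strand. The deposited expected counts are estimated reads per gene without normalization, and they were rounded for tests. The TPM values the authors deposited are scaled to transcript length and a fixed total per library. Deposited FPKM values served 1 alternative. The percent column the authors deposited (IsoPct) is a transcript's share of the gene's TPM. Library totals were 38078399 expected counts in replicate 1 and 63705317 in replicate 2, and 26345 rows that name no gene (0.132% and 0.0882% of counts) were left out.

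Levels were compared as TPM, with no test. For ratios, edgeR 4.0.16 (R 4.3.3) supplied filterByExpr and TMM scaling, with a prior count of 2. Rounded counts were compared with an exact binomial test and Benjamini-Hochberg adjustment, and the step was tested on simulated data. Alternatives used DESeq2 1.42.0 size factors, total count, no filter, other thresholds, the second quantification, and removal of a GC and length spline. GC content came from the leading GENCODE transcript, promoters from RefSeq (GRCm38.p6). Named are all 9 genes and their transcripts at 10% or more of TPM. Of each other list, the 4 highest, the lowest and those at 0 are named, and of marker lists the 2 highest and those at 0. Exceptions are stated, and some marker genes are not reported here.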

Additional observations from a re-analysis of the deposited data

How the results depend on the processing

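No paired analysis was possible because the study has only 1 group. The count of 8 receptor genes at 1 TPM ran from 6 to 8 over the alternatives, and the count of 6 called genes from 5 to 8. The median over the 9 genes, 62.6 TPM as the mean of both libraries, was 50.7 TPM in the second quantification, 75.5 TPM when scaled over nuclear protein-coding genes, and 21.9 TPM over complete coding transcripts only, which was chosen after seeing the data. It ran from 54.7 to 70.5 TPM without 1 replicate. With a 2-fold threshold, 1 gene was called higher in replicate 2, since Scarb1 is 1.97-fold. Msr1 lost its call with the GC and length trend removed (-0.39), and Mrc1 gained one with total count scaling (-0.73). Its TPM ratio (-0.71), which has no test, passed 1.5-fold. Cd163 changed sign in the second quantification (0.32). The other ratios of the 9 genes kept direction and call under all planned scalings. Total count scaling moved the median of all tested genes to -0.19 and the share of calls higher in replicate 2 from 46.3% to 27.5%. The number of genes called over all was 4133, and 1613 with a 2-fold and 8587 with no fold threshold. Calls cover counting error between 2 libraries, so depth limits chiefly Cd163 and transcripts with few counts, such as the minor ones of Marco, Olr1, Cd163, Scarb1 and Stab1.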
